A study of Mus musculus with 2 samples.

Results

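The miR-181 family of the mouse was followed in small RNA from newborn stomach, through its 6 genes Mir181a-1, Mir181b-1, Mir181a-2, Mir181b-2, Mir181c and Mir181d. The genes were taken by symbol, and all 6 were found among the 1973 miRNA genes of the count tables. The series holds 2 microRNA-seq libraries, each made from RNA shorter than 30 nt of 1 stomach. The stomachs came from different pups of 1 dam of the strain B6NCrl, taken on postnatal day 0, untreated as far as the labels say, and their sex was not recorded. There is 1 group, and the data show how the family's counts are spread over its genes and loci and how far 2 littermates differ, with no contrast between conditions.

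MicroRNAs are cut from hairpin precursors, and each hairpin can give a mature strand from its 5′ arm (5p) and from its 3′ arm (3p). The mature strand guides Argonaute proteins to messenger RNAs, mainly by pairing of its bases 2 to 8, the seed. The miR-181 family is best known for tuning T cell receptor signalling in developing thymocytes, and it is also expressed in brain and endothelium. Its genes are arranged as 3 loci, each holding an a-type gene (a-1, a-2 or c) beside a b-type gene (b-1, b-2 or d).

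The mature sequences are shown because they decide which reads can be credited to 1 gene. They come from RefSeq on GRCm38.p6, which held mature entries for 6 of the 6 genes and hairpins for 5 of them, Mir181c being the one without. Capitals mark the seed. The 5p strands of the family are
miR-181a-5p, from Mir181a-1 and from Mir181a-2: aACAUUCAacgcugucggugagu
miR-181b-5p, from Mir181b-1 and from Mir181b-2: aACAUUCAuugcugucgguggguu
miR-181c-5p, from Mir181c: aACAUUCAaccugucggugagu
miR-181d-5p, from Mir181d: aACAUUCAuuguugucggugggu

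All 6 genes share the 5p seed ACAUUCA, and no other gene in the RefSeq miRNA table carried it. The 12 arms gave 10 distinct mature sequences, 4 from the 5′ side and 6 from the 3′ side. Mir181a-1 and Mir181a-2 encode the same 5p strand, and so do Mir181b-1 and Mir181b-2. The 5p strands of Mir181c and Mir181d were found in no other hairpin there. With positions counted from 1 at the 5′ end, miR-181b-5p and miR-181d-5p differed by C12U and by 1 base of length. Mir181c stood at an edit distance of 1 from miR-181a-5p and of 5 from miR-181b-5p. The a-type and b-type strands thus differ more from each other than members within a type do.

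The 3p strands are shown because they differ between genes whose 5p strands are the same.
miR-181a-1-3p: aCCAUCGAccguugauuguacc
miR-181a-2-3p: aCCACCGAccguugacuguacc
miR-181c-3p: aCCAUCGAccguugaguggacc
miR-181b-1-3p: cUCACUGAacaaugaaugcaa
miR-181b-2-3p: cUCACUGAucaaugaaugcaaa
miR-181d-3p: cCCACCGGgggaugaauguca

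Against miR-181a-1-3p, the strand of Mir181a-2 carried U5C and U16C, the first of them within the seed. The 3p strands of Mir181a-1 and Mir181c had the seed CCAUCGA in common. Those of Mir181b-1 and Mir181b-2 had UCACUGA in common and differed by A9U and by 1 base of length. None of the 6 occurred exactly in another hairpin of the table, where the hairpin of Mir181c was missing and could not be searched.

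The stretch that the hairpins of Mir181a-1 and Mir181a-2 have in common is 28 nt long, and that of Mir181b-1 and Mir181b-2 is 26 nt. These stretches are printed here with the 5p strand in capitals, to show how far each runs past that strand before the first difference.
Mir181a-1 and Mir181a-2: gAACAUUCAACGCUGUCGGUGAGUuugg
Mir181b-1 and Mir181b-2: ucAACAUUCAUUGCUGUCGGUGGGUU

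A read of miR-181a-5p has to run more than 4 nt past the mature end, or start more than 1 nt before it, to differ between its 2 genes. A read of miR-181b-5p differs between its 2 genes as soon as it runs past the mature end. The tables set reads that mapped to several places apart from the genes, as 26.0% of the reads of pup 1 and 25.7% of those of pup 2. Reads of the exact 5p strands of Mir181a-1, Mir181a-2, Mir181b-1 and Mir181b-2 match more than 1 place and belong among those. The values of these 4 genes therefore count only reads placed at 1 gene, and may leave out most of the 5p strand. Directly after miR-181b-5p, the hairpin of Mir181b-1 goes on with g and that of Mir181b-2 with u. A read with an added or misread base there could be placed at a gene that did not give it. How many reads were placed in this way was not tested. Which arm a counted read came from is not in the tables.

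Own-strand reads assigned to miRNA genes numbered 4463355 in pup 1 and 3454655 in pup 2. Levels are counts per 1000000 of these (CPM). As a check of the tissue, Mir143 of smooth muscle stood at 241858 ± 12311 CPM (SD, n = 2), Mir203 of squamous epithelium at 95385 ± 1150 CPM and Mir215 of glandular epithelium at 3799 ± 491 CPM. Detection meant 10 counts or more in both libraries, which 305 genes (15.5%) reached, among them 5 of the 6 members. A count of 0 allows up to 0.672 CPM in pup 1 and 0.868 CPM in pup 2. Intervals and these limits cover the counting error of reads only. PCR copies were not told apart by molecular identifiers, so the error of counting molecules may be larger. A read spans a whole mature miRNA, so counts were not divided by gene length, and the order of the loci was the same when they were.

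The locus of Mir181c and Mir181d held most of the reads assigned to the family's genes. On GRCm38, Mir181c (ENSMUSG00000065483.1) lies at chr8:84178873-84178961 and Mir181d (ENSMUSG00000076338.1) at chr8:84178716-84178787. Both are on the minus strand, 85 nt apart, in an intron of Nanos3, a germ cell gene on the same strand. Mir181c had 10894 counts in pup 1 and 8665 in pup 2, or 2441 and 2508 CPM. Its mean of 2474 ± 47.7 CPM was the highest of the family and rank 49 of all 1973 genes. Mir181d had 4057 and 4788 counts, or 909 and 1386 CPM, with a mean of 1147 ± 337 CPM and rank 81. Mir181d was lower than Mir181c in each pup. The pups lay close together for Mir181c and apart for Mir181d, whose exact Poisson 95% intervals were 881 to 937 CPM and 1347 to 1426 CPM.

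The locus of Mir181a-1 and Mir181b-1 was read almost wholly through Mir181a-1. Mir181a-1 (ENSMUSG00000065565.1) lies at chr1:137966455-137966541 and Mir181b-1 (ENSMUSG00000065458.1) at chr1:137966639-137966718, on the plus strand and 97 nt apart. Both are inside an intron of the noncoding gene Gm4258. On the same strand, the long noncoding RNA gene A430106G13Rik begins within Mir181a-1 and covers Mir181b-1 with an exon. Mir181a-1 had 2925 counts in pup 1 and 1881 in pup 2, or 655 and 544 CPM, with a mean of 600 ± 78.4 CPM and rank 101. Mir181b-1 had 11 and 9 counts, or 2.46 and 2.61 CPM, and was the member that missed the detection minimum, by 1 count in pup 2. Both of its counts lie above the limit of a zero count, and their intervals overlap almost fully.

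The locus of Mir181a-2 and Mir181b-2 showed the opposite order of its types. Mir181a-2 (ENSMUSG00000065423.1) lies at chr2:38852735-38852810 and Mir181b-2 (ENSMUSG00000065578.1) at chr2:38853830-38853918, on the plus strand and 1019 nt apart. Both lie opposite to an intron of Nr6a1, an orphan nuclear receptor gene, and the noncoding gene Nr6a1os ends 365 nt before Mir181a-2 on its strand. Mir181b-2 had 702 counts in pup 1 and 836 in pup 2, or 157 and 242 CPM, with a mean of 200 ± 59.9 CPM and rank 139. Mir181a-2 had 175 and 107 counts, or 39.2 and 31.0 CPM, with a mean of 35.1 ± 5.82 CPM and rank 215. In both pups Mir181b-2 was above Mir181a-2. Each of the 6 genes had 0 counts on the opposite strand in each library.

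**Figure D1:**
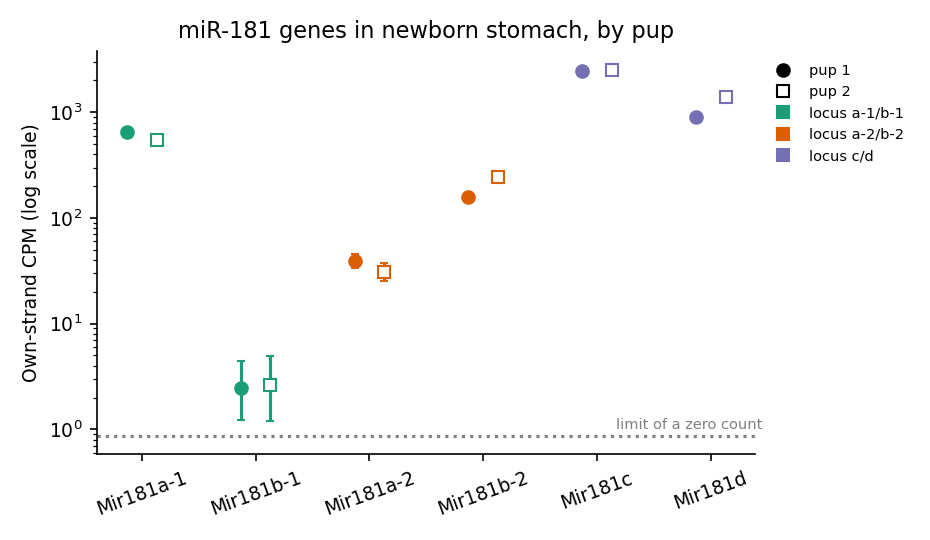
Level of each miR-181 gene in own-strand CPM on a log axis, with filled circles for pup 1, open squares for pup 2 and colours for the locus. Error bars are exact Poisson 95% intervals, and the dotted line is the higher of the levels that a count of 0 allows (0.868 CPM). Mir181c is highest and Mir181b-1, at 11 and 9 counts, lowest in both pups.

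In order of mean level the genes ran Mir181c, Mir181d, Mir181a-1, Mir181b-2, Mir181a-2 and Mir181b-1, and this order held in each pup. From Mir181c to Mir181d the fold was 2.69 in pup 1 and 1.81 in pup 2. From Mir181d to Mir181a-1 it was 1.39 and 2.55, from Mir181a-1 to Mir181b-2 4.17 and 2.25, and from Mir181b-2 to Mir181a-2 4.01 and 7.81. The last step, from Mir181a-2 to Mir181b-1, was 15.9-fold and 11.9-fold. On the log2 scale each step exceeded its SD over the pups, most narrowly from Mir181d to Mir181a-1 at 0.91 ± 0.62. Between the 2 genes of the miR-181a-5p strand, Mir181a-1 exceeded Mir181a-2 16.7-fold and 17.6-fold. Between those of the miR-181b-5p strand, Mir181b-2 exceeded Mir181b-1 63.8-fold and 92.9-fold, the latter from 836 against 9 counts. Among reads placed at 1 gene, the higher a-type copy was thus on chromosome 1 and the higher b-type copy on chromosome 2. Reads of the exact strand that both copies encode belong among those set aside. Which copy gave more of that strand was not tested.

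**Figure D2:**
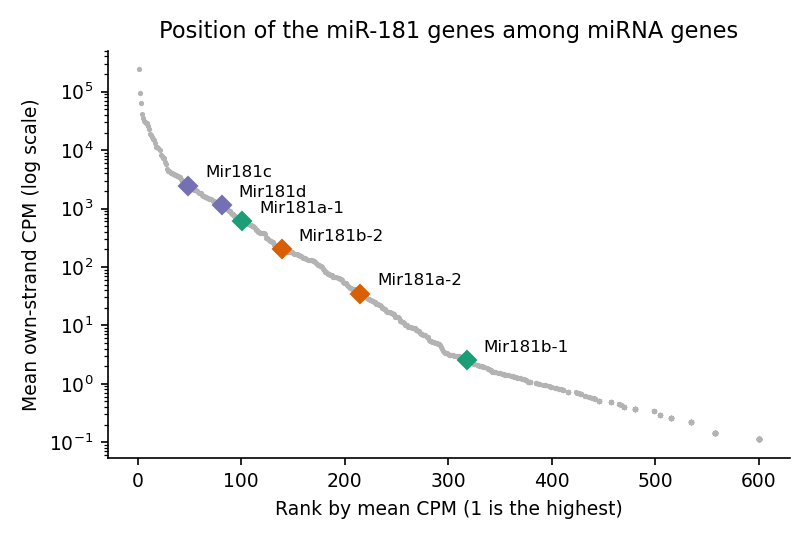
Mean own-strand CPM (log axis) against rank for every miRNA gene with a count, in grey, with the miR-181 genes as coloured diamonds. The members spread from rank 49 (Mir181c) to rank 318 (Mir181b-1).

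Summed over genes, the 3 loci kept the order c/d, a-1/b-1, a-2/b-2 in both pups. The family had 18764 counts in pup 1 and 16286 in pup 2. Of the own-strand counts of all miRNA genes, this was 0.420% (exact binomial 95% interval 0.414% to 0.426%) and 0.471% (0.464% to 0.479%), or 0.446% ± 0.0361 (SD, n = 2). Locus c/d had 14951 and 13453 of the family's counts, 79.7% (79.1% to 80.3%) and 82.6% (82.0% to 83.2%). Locus a-1/b-1 had 2936 and 1890, or 15.6% (15.1% to 16.2%) and 11.6% (11.1% to 12.1%). Locus a-2/b-2 had 877 and 943, or 4.67% (4.38% to 4.99%) and 5.79% (5.44% to 6.16%). Each locus's share differed between the pups by more than counting error, and the shares of different loci never overlapped.

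Locus c/d exceeded locus a-1/b-1 5.09-fold in pup 1 and 7.12-fold in pup 2, a log2 ratio of a-1/b-1 over c/d of -2.59 ± 0.34 (SD, n = 2). It exceeded locus a-2/b-2 17.0-fold and 14.3-fold, at -3.96 ± 0.18 for a-2/b-2 over c/d. Locus a-1/b-1 exceeded locus a-2/b-2 3.35-fold and 2.00-fold, at 1.37 ± 0.52. All 3 differences were larger than the spread between the pups. An exact permutation test over 2 libraries cannot fall below p = 0.5, so the SD is the only yardstick used. These ratios compare assignable reads, and loci a-1/b-1 and a-2/b-2 are understated against c/d to the extent that their identical 5p strands were set aside. How far that goes was not tested.

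**Figure D3:**
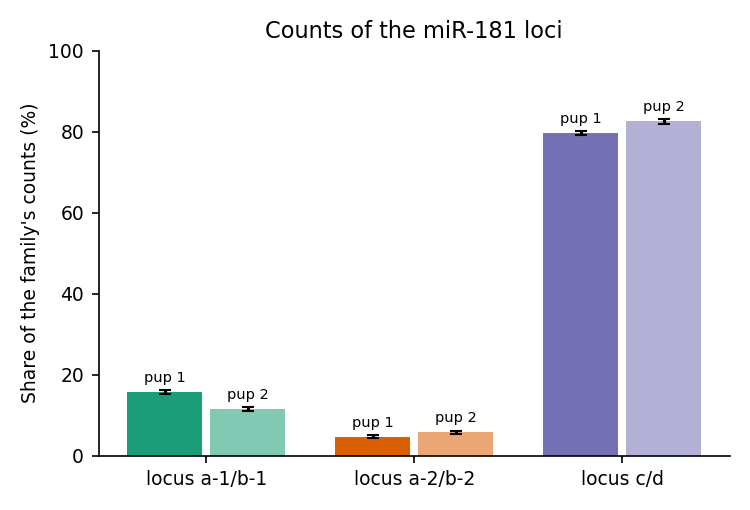
Share of the family's own-strand counts held by each locus, in percent, with dark bars for pup 1 and light bars for pup 2. Error bars are exact binomial 95% intervals. Locus c/d holds 79.7% and 82.6%, locus a-1/b-1 15.6% and 11.6%, and locus a-2/b-2 4.67% and 5.79%.

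The 4 genes with an identical 5p strand were set beside other genes of that kind, the members left out. Of 576 other miRNA genes with both mature arms in the RefSeq table, 49 had 1 arm identical to that of another gene. Their median level was 15.6 CPM, with an upper quartile of 72.5 CPM, and 63.3% were detected. Mir181a-1 and Mir181b-2 lay above that quartile, Mir181a-2 between it and the median, and Mir181b-1 below the median. Of the 511 others with no identical arm, 39.3% were detected and the upper quartile was 94.4 CPM, below both Mir181c and Mir181d. A further 16 had every arm identical to that of another gene, and 18.75% of these were detected, with a median of 0 CPM. In 12 paralog pairs with the same main mature strand, chosen from other families, 21 genes were found and 16 of them detected. They ran from Mir16-1 at 1491 ± 184 CPM to Mir219a-2 at 0.514 ± 0.0925 CPM, with a median of 26.1 CPM. The pair listed as Mir92a-1 and Mir92a-2 is not among the 21, because the annotation names those genes Mir92-1 and Mir92-2. Both were detected, at 967 and 23.5 CPM. These are descriptions, since genes of one family are not independent.

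The genes nearest in level to each member, by the mean absolute difference of log2(CPM + 0.5) over the 2 libraries, came from many families. They were Mirlet7f-2 (2434 ± 47.4 CPM) and Mir125a (2447 ± 293 CPM) for Mir181c, and Mir28a (1181 ± 178 CPM) and Mir137 (1220 ± 176 CPM) for Mir181d. Mir1193 (624 ± 116 CPM) and Mir467e (588 ± 34.8 CPM) were nearest to Mir181a-1. Mir185 came closest to any member, at 159 and 239 CPM beside 157 and 242 CPM for Mir181b-2, a mean difference of 0.017, with Mir222 (179 ± 20.6 CPM) next. Mir666 and Mir3102 were nearest to Mir181a-2, and Mir3075 and Mir3109 to Mir181b-1. With 2 libraries, nearness describes level and carries nothing on shared control.

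Genes that mark cell types in which miR-181 is known were also counted. Leukocyte genes had 5 of 6 found members detected and summed to 0.219% of counts in pup 1 and 0.271% in pup 2, led by Mir342 (1812 ± 347 CPM) and the myeloid gene Mir223 (470 ± 15.4 CPM). The lymphocyte gene Mir150 stood at 39.2 ± 5.10 CPM and Mir155, induced in activated lymphocytes, at 54.1 ± 12.8 CPM. The endothelial gene Mir126a held 3.56% and 3.44%. Neuronal genes had 5 of 10 found members detected and held 0.140% and 0.164%, led by Mir137 and Mir132 (208 ± 7.07 CPM). Mir9-2 and the 3 Mir124a genes had no count. Every mature strand of Mir9-2 is also that of another gene, so its reads belong among those set aside and its lack of counts does not show absence. Whether the Mir124a genes share their strands was not checked, and their lack of counts is not read as absence either. In whole stomach RNA, fewer cells of a type and less RNA per cell cannot be told apart, and the cells that gave the miR-181 reads are not known from these tables.

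Between the pups, Mir181d and Mir181b-2 had higher values in pup 2, Mir181a-1 and Mir181a-2 had higher values in pup 1, and Mir181c and Mir181b-1 were nearly level. None of these differences was large enough for a call. Each of the 305 detected genes was tested by a two-sided exact binomial test against TMM-scaled library sizes and called at an adjusted p under 0.05 with a ratio of at least 1.5. By this rule 2.95% of genes were called, and 0 of the 5 detected miR-181 genes. Mir181d had a log2 ratio of pup 1 over pup 2 of -0.51 (exact 95% interval -0.57 to -0.44; adjusted p = 1.2e-59, binomial) and Mir181b-2 one of -0.52 (-0.67 to -0.37; adjusted p = 9.9e-12). Both values lie on the side of pup 2. Mir181a-1, at 0.37 (0.29 to 0.45; adjusted p = 1.5e-17), and Mir181a-2, at 0.44 (0.09 to 0.80; adjusted p = 0.026), lie on the side of pup 1. Mir181c was nearly level at 0.06 (0.02 to 0.10; adjusted p = 0.0055), and so was Mir181b-1 at 0.02, with an interval from -1.39 to 1.47 that its few counts leave wide.

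The median absolute log2 ratio of detected genes was 0.17, and 22 genes had a larger one than Mir181b-2. The adjusted p passed 0.05 for all 5 genes, as it did for 52.1% of those tested. The binomial test covers counting error and compares these libraries, not conditions. With the spread between pups estimated over all genes (edgeR common dispersion, a coefficient of variation of 11.4%), 0.328% of genes were called, and the adjusted p of the 5 members lay between 0.946 and 0.999. Since it is estimated from the very libraries compared, this dispersion takes up the differences between them, so few calls were possible and this says nothing of stability. Scaled by own-strand totals alone, the median gene moved to -0.13. Mir181d (-0.61) and Mir181b-2 (-0.62) were then called beside 5.25% of all genes, and Mir181c turned to -0.039. By the same scaling, the adjusted p in the binomial test was 0.110 for Mir181c and 0.104 for Mir181a-2, and with no filter on low counts it was 0.056 for Mir181a-2. Among the marker lists, the summed leukocyte genes were 1.23-fold and the neuronal genes 1.17-fold higher in pup 2 in CPM. CPM rests on own-strand totals, the scaling under which the median gene lay at -0.13. The leukocyte sum followed Mir342 (1567 and 2058 CPM), while Mir223 stood at 481 and 459 CPM. The neuronal sum followed Mir137 (1096 and 1345 CPM), and Mir128-2 was also higher in pup 2 (14.6 and 18.2 CPM). Mir132 (213 and 203 CPM), Mir212 (17.3 and 17.1 CPM) and Mir128-1 (64.7 and 54.7 CPM) were lower in pup 2. The part of leukocytes and neurons in the miR-181 values was not tested.

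**Figure D4:**
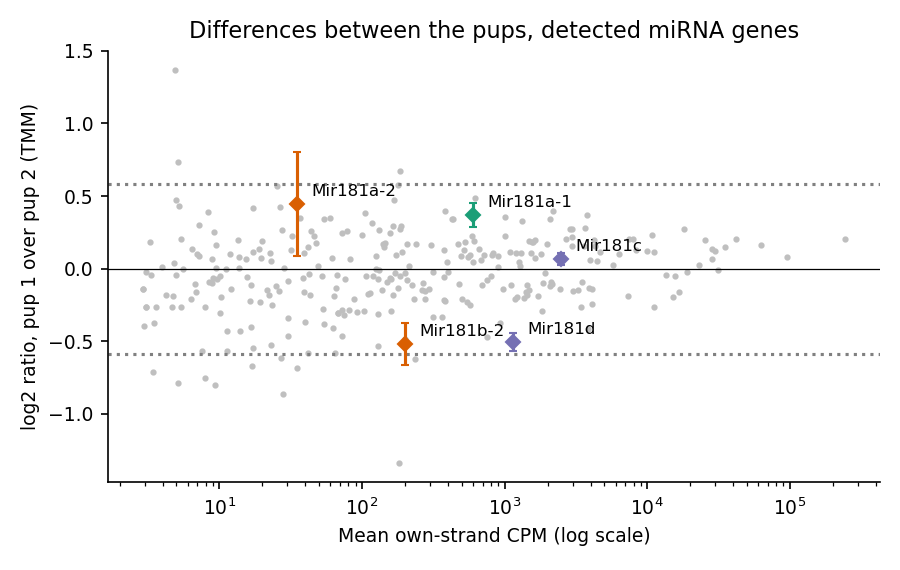
The log2 ratio of pup 1 over pup 2 after TMM scaling, against mean own-strand CPM (log axis), for the 305 detected genes in grey and the 5 detected miR-181 genes as coloured diamonds with exact 95% intervals. Dotted lines mark the ratio of 1.5 needed for a call. Mir181d and Mir181b-2 lie near -0.5, Mir181a-1 and Mir181a-2 near 0.4, and no diamond lies beyond a line.

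Ratios within a library do not depend on scaling, and they were compared inside the loci and across them. Mir181b-2 stood at 4.01 times Mir181a-2 in pup 1 and 7.81 times in pup 2, and Mir181d at 0.372 and 0.553 times Mir181c. Mir181b-1 stood at 0.00376 and 0.00478 times Mir181a-1, from 11 and 9 counts. Those few counts leave the direction at the chromosome 1 locus unknown. Across chromosomes, Mir181d stood at 5.78 and 5.73 times Mir181b-2, and Mir181a-1 at 16.7 and 17.6 times Mir181a-2. Mir181c over Mir181a-1 differed more, at 3.72 and 4.61. Mir181b-2 over Mir181b-1 stood at 63.8 and 92.9, but the 11 and 9 counts of Mir181b-1 are too few to say whether that ratio differed. Mir181c over Mir181a-2 and Mir181d over Mir181b-1 are not given here. The comparison of ratios was chosen after the values were seen.

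To set these shifts beside others, the change of ratio between the pups was computed for every pair of neighbouring detected miRNA genes on 1 strand within 10000 nt, 98 pairs in all, with Fisher's exact test. Of these pairs 8.16% passed an adjusted p of 0.05 with a change of at least 1.5-fold. The pair Mir181a-2 and Mir181b-2 passed with a change of 1.95-fold, or 0.96 on the log2 scale (adjusted p = 1.9e-06, Fisher's exact test). That was rank 2 of the 98 by size, where the median was 0.20. The ratio of Mir181d to Mir181c differed by 0.57, or 1.48-fold (adjusted p = 3.4e-51, Fisher's exact test), rank 14 of the 98, and missed the minimum ratio. The pair on chromosome 1 was not tested because Mir181b-1 was not detected. Neighbouring pairs can share a gene, and the test covers counting error between these libraries only.

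**Figure D5:**
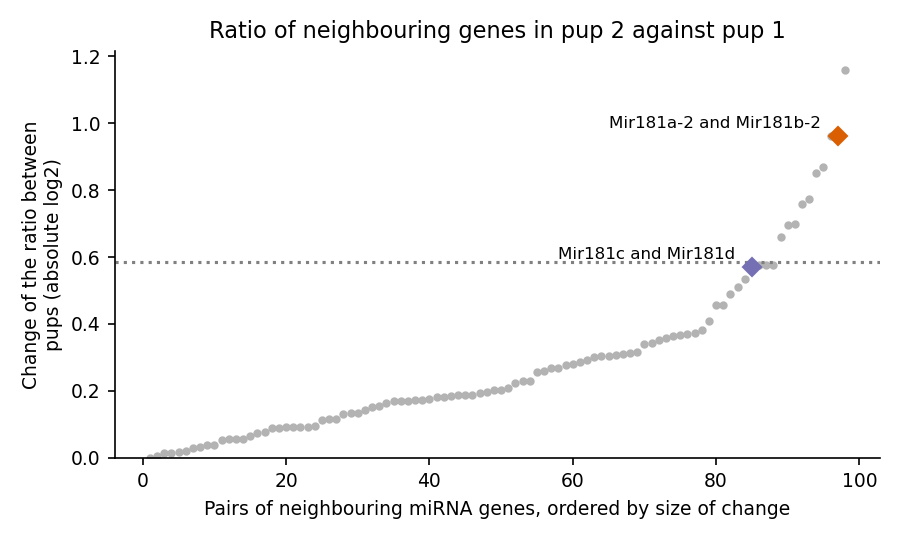
Absolute log2 change between the pups of the ratio of neighbouring miRNA genes, for 98 pairs ordered by size (grey), with the miR-181 pairs as coloured diamonds. The dotted line marks a change of 1.5-fold. Mir181a-2 and Mir181b-2 (0.96) lie above it and Mir181c and Mir181d (0.57) just below.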

How the data were processed

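MicroRNA-seq of 2 newborn mouse stomachs was used. The authors deposited raw read counts per miRNA gene, without regard to strand and for each strand, on mm10 with annotation M4 per the description files that accompany the tables. Aligner and counter: not given in the sources used here. The strand column with the larger total (97.7% and 97.8% of gene counts) was used, and reads naming no gene stayed out of totals. Identifiers were matched without version to GENCODE M21 on GRCm38 (1894 of 1973). Mir181c differs there by version, so its limits in M4 may differ. Replicates are littermates that carry one donor entry in the labels.

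CPM, exact Poisson and binomial 95% intervals and ratios were computed with Python 3.11.15, numpy 2.4.6, scipy 1.17.1 and pandas 2.3.3, and figures with matplotlib 3.10.9. TMM factors over detected genes and the common dispersion came from edgeR 4.0.16, and alternative size factors from DESeq2 1.42.0 (R 4.3.3). P-values were adjusted by Benjamini-Hochberg over all 305 detected genes or all 98 pairs. Sequences came from RefSeq (GRCm38.p6), whose table joined 916 genes of the count tables. Arms were compared base by base. The tests were run on simulated Poisson counts, which held no spread between pups beyond counting error. That check therefore cannot show how the tests fare with the spread of real pups. The members, lists and tests were chosen with earlier results of these data known. Genes named are the members, the 2 nearest in level to each, the leading genes of each marker list, the ends of the paralog set and overlapping or adjacent genes of the annotation. Mir150, Mir155, Mir9-2, the Mir124a genes, Mir92-1, Mir92-2 and Nr6a1os were named outside that rule.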

Additional observations from a re-analysis of the deposited data

How the results depend on the processing

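The order of the loci held under every alternative tried (strand, pseudocount of 1, division by length, higher gene only, each pup alone). The strand setting could not change it, since no member had a count on the opposite strand. None of the alternatives brings back the shared 5p strands that were set aside, so this order is one of assignable reads only. Using only the higher gene of each locus moved the log2 ratio to -2.05 for a-1/b-1 over c/d and to -3.66 for a-2/b-2 over c/d. The family's share was 0.277% over all reads in the tables. Mir181c stood at 2420 CPM on both strands' total. Scaled by own-strand totals, 2 members were called between the pups (Mir181b-2 at -0.62, Mir181d at -0.61), Mir181c reversed to -0.039, and the adjusted p of Mir181a-2 and Mir181c rose above 0.05. Without a minimum ratio 5 were called, beside 52.1% of all genes, and the change of the ratio Mir181d over Mir181c passed. The count stayed at 0 with DESeq2 size factors, both strands and no filter on low counts. It was also 0 with the edgeR dispersion, which is estimated from the libraries it compares and is no check of stability. There Mir181b-2 and Mir181d had an unadjusted p of 0.036 and 0.032. The alternatives for neighbouring pairs were chosen after seeing the data. No paired analysis was possible because the labels give 1 group. Depth limits Mir181b-1 most, whose 11 and 9 counts kept it out of the test between pups unless the filter was dropped.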
